A study of Rattus norvegicus with 12 samples.

Results

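The genes described here make, sense and clear prostaglandins in rat liver epithelial cells. They are the 10 genes Pla2g4a, Ptgs1, Ptgs2, Ptges, Ptgis, Ptgds, Ptger2, Ptger4, Ptgfr and Hpgd, among 14217 genes that the array names with a single symbol. All probe sets with these symbols were taken, which gave 14 of the 31042 probe sets that are not controls. Ptgs1, Ptges, Ptgfr and Hpgd had 2 probe sets each and the other members had 1. The set was chosen by pathway after an earlier analysis of these arrays had shown the values of Ptgs2, its rise with rapamycin in WB-F344 cells and its difference between the lines. All values of Ptgs2 are therefore given as a description, with no test. Its standard errors and 95% intervals describe the spread between plates and are not read as a test. RNA of 3 plates in each of 4 groups was measured on 12 Affymetrix whole-genome rat expression arrays. WB-F344 is a normal diploid epithelial line from the liver of an adult male Fischer rat, does not form tumours, is sensitive to rapamycin and doubles in 42 hr. WB311 arose spontaneously from WB-F344, is tumorigenic and resistant, and doubles in 15.5 hr. Each line was exposed for 24 hr to 50 nM rapamycin, an inhibitor of the mTORC1 kinase complex, or to its DMSO vehicle. The replicates are plates of 1 line, so that errors and p-values cover the spread between plates and not between animals or independently derived lines.

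Prostaglandins are short-lived lipid signals that act on the cell that releases them and on its neighbours. A phospholipase frees arachidonic acid from membranes, a cyclooxygenase turns it into prostaglandin H, and terminal synthases convert that into the individual prostaglandins and prostacyclin. These bind G protein-coupled receptors at the cell surface and are inactivated by a dehydrogenase. Of the 2 cyclooxygenase genes, Ptgs1 is the form that many tissues make at rest and Ptgs2 is the form induced by growth factors, cytokines and stress. In liver, prostaglandins are known for roles in inflammation, blood flow and regeneration.

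Ptgs2 and Pla2g4a are near neighbours on rat chromosome 13. In the RefSeq annotation of assembly GRCr8, 2 annotated genes lie between them, the pseudogene Tmem208-ps1 and the long non-coding RNA Ptgs2os, and the pair is transcribed in opposite directions. Their promoters are shown because these 2 members had the largest log2 differences with rapamycin in WB-F344. Each is the 250 bases before the annotated start, 5′ to 3′ on the gene's own strand, from RefSeq (GRCr8), with matches to the motifs searched in capitals. The Ptgs2 stretch lies at chr13:64713813-64714062 on the plus strand and that of Pla2g4a at chr13:64572353-64572602 on the minus strand.
Ptgs2: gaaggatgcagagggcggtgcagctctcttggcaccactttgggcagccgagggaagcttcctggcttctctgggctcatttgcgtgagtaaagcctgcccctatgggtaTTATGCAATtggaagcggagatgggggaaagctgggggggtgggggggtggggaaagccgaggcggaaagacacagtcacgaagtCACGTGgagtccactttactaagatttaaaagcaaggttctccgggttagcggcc
Pla2g4a: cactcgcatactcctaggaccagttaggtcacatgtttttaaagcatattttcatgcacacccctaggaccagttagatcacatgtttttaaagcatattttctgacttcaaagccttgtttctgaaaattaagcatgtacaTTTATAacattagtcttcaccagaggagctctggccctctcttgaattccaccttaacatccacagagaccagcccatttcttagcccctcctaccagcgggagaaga

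Both strands were searched for the E-box CACGTG, the C/EBP motif TTNNGNAAT, the cAMP response element TGACGTCA, the AP-1 motif TGANTCA and the TATA box TATAAA. In Ptgs2 the C/EBP match lay 140 to 132 bases before the start and the E-box 55 to 50 bases before it. In Pla2g4a the capitals mark a TATA box on the opposite strand, 108 to 103 bases before the start. An E-box was present in 5.59% of 33469 RefSeq promoters of this length, a C/EBP match in 10.9% and a TATA box in 12.9%. The cAMP response element was present in 1.59% and the AP-1 motif in 6.34%. Of 9 members with a promoter entry, the only other matches were 2 overlapping C/EBP matches in Ptgfr. These matches describe the letters of the sequence only.

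Array medians lay between 59.5 and 62.9, and the arrays of a group correlated at 0.989 to 0.998 over all probe sets. The pair of WB-F344 arrays numbered 2 stood apart in RNA quality. Their 3′ minus 5′ difference of the Gapdh control probe sets, which grows as RNA degrades, was 0.34 with vehicle and 0.17 with rapamycin on the log2 scale. The other 10 arrays lay between -0.12 and -0.04. For beta-actin the difference was 1.04 and 0.62 on the WB-F344 arrays numbered 2 and 0.21 to 0.25 on the other WB-F344 arrays. On the WB311 arrays it was 0.38 to 0.49. Members' differences and list counts that rest on WB-F344 are therefore also given without the WB-F344 plates numbered 2. The part of the beta-actin offset between the lines in their comparisons was not tested. Among 6 epithelial markers, Krt8 and Krt7 reached a mean intensity of 100 in WB-F344, while Krt18, Krt19, Epcam and Cdh1 did not. In WB311 Krt8 and Krt18 reached it in both treatments. Mesenchymal markers were present in both lines (6 of 6 in WB-F344 and 5 of 6 in WB311), and of 5 hepatocyte markers only Ttr came near 100, with group means of 96.9 to 103.

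Of the 10 members, 3 reached a mean intensity of 100 in a group: Pla2g4a, Ptgs2 and Ptgis. Of their 14 probe sets 3 did so, against 45.79% of all probe sets on the array. An average of at least 100 in a group compared is the minimum that was required for a test. The other 7 genes, with 11 probe sets, lay between 9.53 and 58.2 over all 12 arrays. Ptgs1, the constitutive cyclooxygenase, had a lowest, median and highest value of 27.2, 29.6 and 34.6 on its first probe set and of 34.5, 39.2 and 43.4 on its second. Ptges, the inducible terminal synthase for prostaglandin E, ranged from 14.6 to 19.3 (median 16.2) and from 32.6 to 58.2 (median 47.7). Neither probe set of either gene came near 100 on any array. Ptgds, a prostaglandin D synthase, ranged from 19.7 to 29.9 with a median of 22.3. The receptors for prostaglandin E, Ptger2 and Ptger4, had medians of 32.05 (25.9 to 35.4) and 29.8 (22.2 to 36.0). Ptgfr, the prostaglandin F receptor, had medians of 10.5 (9.53 to 11.3) and 38.5 (31.8 to 44.2). Hpgd, the dehydrogenase that inactivates prostaglandins, had medians of 13.0 (11.1 to 14.3) and 26.5 (22.8 to 29.4). An intensity this low does not show that a transcript is absent, and intensities of different probe sets cannot be set against each other.

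**Figure D1:**
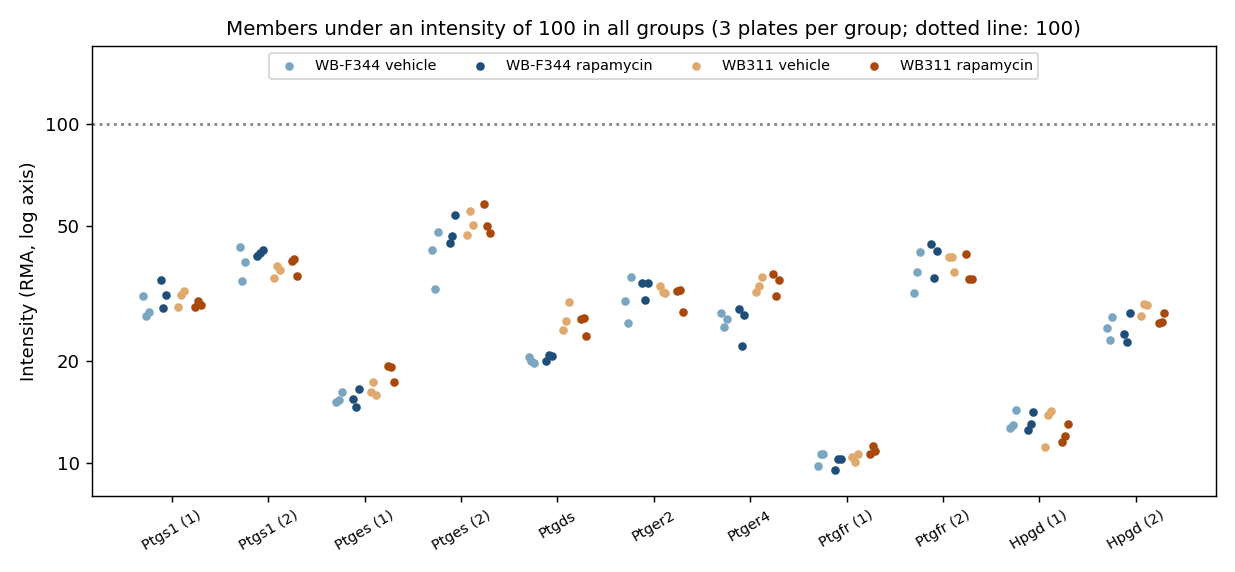
Intensity (log axis) of the 11 probe sets of the 7 members whose mean was under 100 in every group. Each point is 1 plate, coloured by group, and the dotted line marks 100. All points lie between 9.53 and 58.2. The WB311 points of Ptgds and Ptger4 sit above the WB-F344 points of the same gene.

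In WB-F344, both the inducible cyclooxygenase and the phospholipase that supplies its substrate were higher with rapamycin. Ptgs2 read 62.4, 104 and 57.1 on vehicle plates 1 to 3, a mean of 74.5 ± 25.6 (SD, n = 3). It read 490.3, 445 and 438 with rapamycin, a mean of 458 ± 28.3 (SD, n = 3). The groups did not overlap, as for 34.3% of tested probe sets in this comparison, and the highest vehicle value was that of plate 2, the plate with the largest 3′ minus 5′ difference. The log2 difference was 2.67 (standard error 0.17, 95% interval 2.30 to 3.04), which is 6.37-fold. Its vehicle mean was under 100, so Ptgs2 entered the comparison only through its rapamycin group and the fold is a rough size. Without the plates numbered 2 the log2 difference was 2.96. As these are whole cultures, more cells that make a transcript and more RNA per cell cannot be told apart.

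Pla2g4a encodes cytosolic phospholipase A, which releases arachidonic acid from membrane phospholipids. It read 402, 459 and 389 with vehicle (417 ± 37.3, SD, n = 3). With rapamycin it read 711, 714 and 659 (695 ± 30.8, SD, n = 3). Every rapamycin plate was above every vehicle plate, in a comparison where the groups did not overlap for 34.3% of tested probe sets. The log2 difference was 0.74 (standard error 0.09, 95% interval 0.55 to 0.93), a 1.67-fold rise with an adjusted p of 0.00011 from limma, and it was 0.79 without the plates numbered 2. Between these neighbouring genes, Ptgs2os read 24.7 to 34.1 on the WB-F344 arrays, with means of 27.4 ± 2.63 with vehicle and 30.8 ± 3.62 with rapamycin (SD, n = 3), too low for a test.

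Ptgis, the prostacyclin synthase, was bright in WB-F344 under both conditions. It read 3287, 3534 and 3431 with vehicle (3417 ± 124, SD, n = 3). With rapamycin it read 4173, 3937 and 3847 (3986 ± 169, SD, n = 3). The groups did not overlap, as for 34.3% of tested probe sets, and the difference was small. It was 0.22 on the log2 scale (standard error 0.069, 95% interval 0.07 to 0.37, adjusted p = 0.0325 from limma), and at 1.17-fold it stayed under the 1.2-fold that a call required. It was 0.25 without the plates numbered 2. Apart from Ptgs2, 1 of 2 tested members was thus called in WB-F344, where 23.0% of all tested probe sets were called and 7.74% were called higher. Members were chosen with this contrast in view, so nothing is read from their count. Cd14, the only 1 of 6 leukocyte markers above 100, rose as well. Its mean was 566 with vehicle and 1123 with rapamycin (log2 difference 0.99, adjusted p = 5.59e-05 from limma, and 0.997 without the plates numbered 2). The summed level of the 6 markers was 654 to 779 with vehicle and 1151 to 1405 with rapamycin, and Ptprc, the pan-leukocyte marker, was among the 5 under 100. Of 6 mesenchymal markers Col1a1 and Sparc were called lower. The means of Tagln (5478 with vehicle, 7246 with rapamycin) and Acta2 (981 and 1075) ran the other way. Tagln was called higher only in other fits, among them the methods' t-test. The summed level of all 6 was 53135 to 60854 with vehicle and 48197 to 53991 with rapamycin. The epithelial marker Krt8 was called lower as well, with means of 2986.5 and 2314. The part of these shifts in the member values was not tested.

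**Figure D2:**
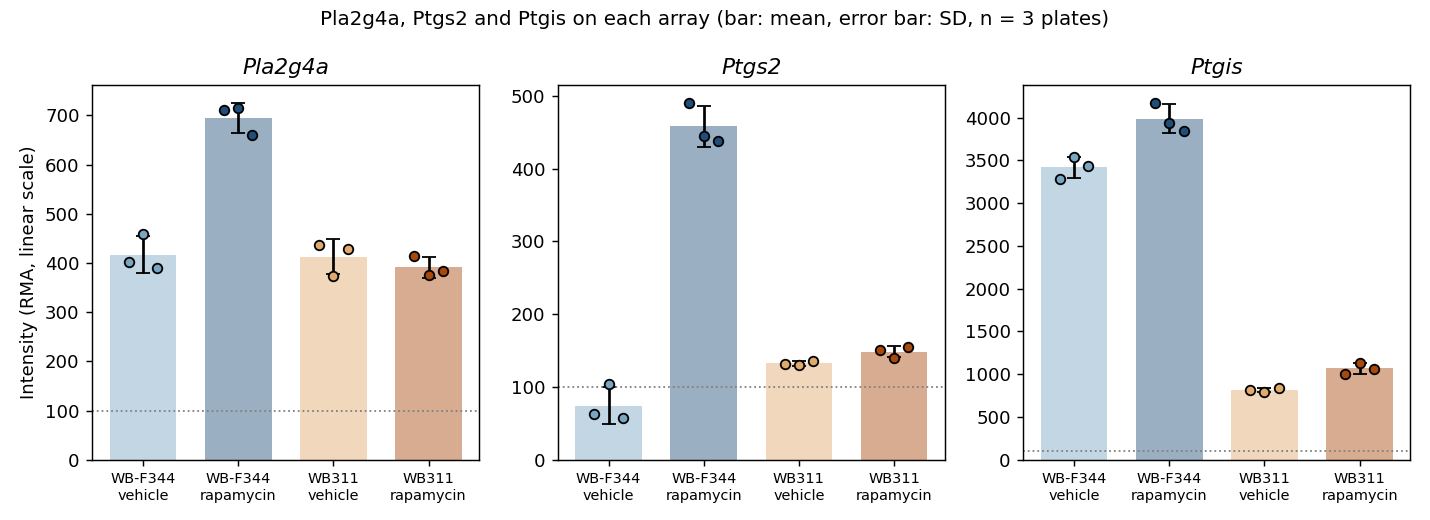
Intensity (linear scale, RMA) of Pla2g4a, Ptgs2 and Ptgis in the 4 groups. Points are plates, bars are means, error bars are SD over 3 plates and the dotted line marks 100. Pla2g4a and Ptgs2 stand higher in WB-F344 with rapamycin than in any other group, while Ptgis stands higher in both WB-F344 groups than in both WB311 groups.

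In the resistant line, Ptgis was called higher with rapamycin, and in WB-F344 it had also read higher without reaching a call. Ptgis read 817, 789 and 835 on WB311 vehicle plates (814 ± 23.4, SD, n = 3). It read 1008.5, 1133 and 1059.5 with rapamycin (1067 ± 62.8, SD, n = 3). The groups did not overlap, as for 38.7% of tested probe sets. The log2 difference of 0.39 (standard error 0.069, 95% interval 0.24 to 0.54) was a 1.31-fold rise with an adjusted p of 0.0101 from limma. This call was lost without rapamycin plate 2, where the log2 difference was 0.35 and the adjusted p from limma 0.0544. Leaving out a plate also lowers the number of arrays, and the part of plate 2 itself was not tested. Apart from Ptgs2, Ptgis was the 1 called of 2 tested members, where 3.35% of all tested probe sets were called and 1.71% were called higher.

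Ptgs2 in WB311 read 132, 129.6 and 136 with vehicle (132 ± 3.26, SD, n = 3). It read 151, 140.2 and 155 with rapamycin (149 ± 7.52, SD, n = 3). The groups did not overlap, as for 38.7% of tested probe sets in this comparison, and the log2 difference was 0.17. Its 95% interval ran from -0.20 to 0.54 with the spread estimated over all 4 groups, from 0.02 to 0.31 with only the WB311 groups in the fit, and from 0.01 to 0.32 without the WB-F344 plates numbered 2. Pla2g4a read 436, 373 and 429 with vehicle (413 ± 34.9, SD, n = 3). It read 415, 375 and 383 with rapamycin (391 ± 20.9, SD, n = 3). These groups overlapped, and the log2 difference was -0.08 (95% interval -0.27 to 0.11, adjusted p = 0.751 from limma). A change in Pla2g4a of the size seen in WB-F344 lay outside that interval.

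The rapamycin effect on Pla2g4a differed between the lines, and so did the values of Ptgs2, while Ptgis did not pass the test of a difference. The effect in WB311 minus that in WB-F344 was -0.82 for Pla2g4a on the log2 scale (standard error 0.12, 95% interval -1.09 to -0.55, adjusted p = 0.00159 from limma's interaction contrast). It was -0.87 without the WB-F344 plates numbered 2. For Ptgs2 this difference was -2.51 (standard error 0.24, 95% interval -3.03 to -1.98), and -2.79 without those plates. For Ptgis it was 0.17 (95% interval -0.04 to 0.38, adjusted p = 0.34 from limma), so its effects in the lines were not shown to differ. Apart from Ptgs2, 1 of 2 tested members was called, where 10.0% of all tested probe sets were called and 3.15% were called lower, and again nothing is read from that count. The effect on Cd14 differed too, by -0.77 (adjusted p = 0.00648 from limma), and by -0.78 without those plates. The effects on 3 of 6 mesenchymal markers (Col1a1, Col1a2 and Sparc) and on the epithelial marker Krt7 differed as well, with the log2 effect in WB311 above that in WB-F344 for each. The part of these shifts in the member differences was not tested.

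**Figure D3:**
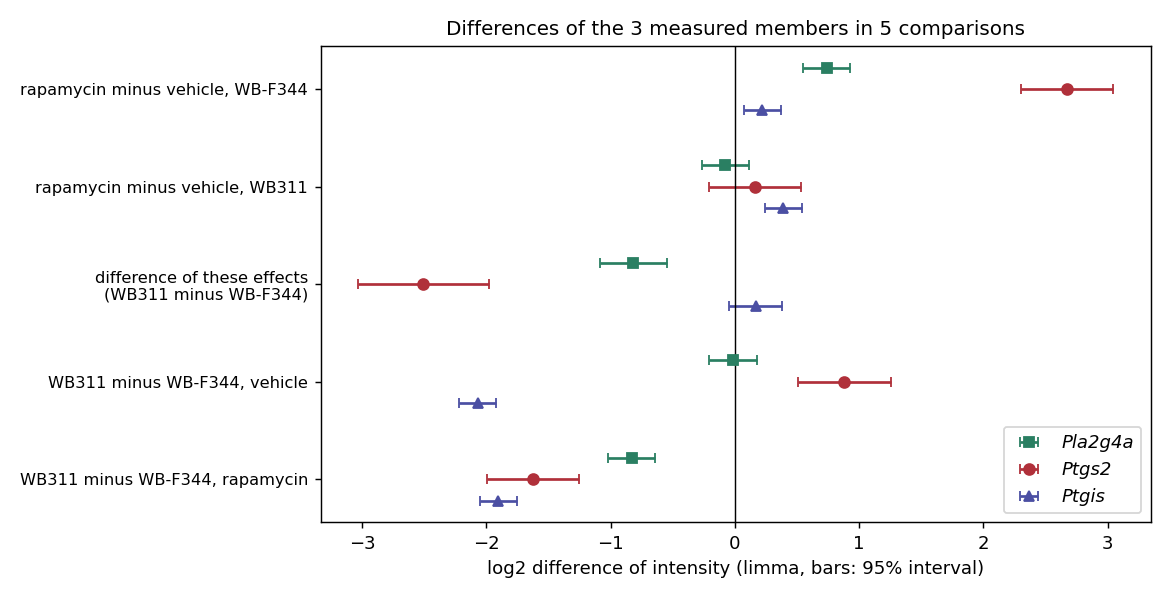
Log2 differences of Pla2g4a, Ptgs2 and Ptgis in 5 comparisons, with bars for the 95% interval from limma. Ptgs2 lies at 2.67 for rapamycin in WB-F344 and at 0.17 in WB311. Ptgis lies near -2 in both comparisons of the lines, and Pla2g4a lies at -0.01 between the lines with vehicle and at -0.83 with rapamycin.

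With vehicle, WB311 (doubling in 15.5 hr) carried far less prostacyclin synthase mRNA and somewhat more Ptgs2 than WB-F344 (doubling in 42 hr). Ptgis was lower in WB311 on every plate, with a log2 difference of -2.07 (standard error 0.069, 95% interval -2.22 to -1.92), which is 4.20-fold lower (adjusted p = 8.61e-11 from limma). It was -2.05 without the WB-F344 plates numbered 2. Ptgs2 was higher in WB311 on every plate, with a log2 difference of 0.88 (standard error 0.17, 95% interval 0.51 to 1.25) that became 1.15 without those plates, a rough size because the WB-F344 mean was under 100. Pla2g4a overlapped between the lines, and its log2 difference was -0.01 (95% interval -0.21 to 0.18, adjusted p = 0.901 from limma). Apart from Ptgs2, 1 of 2 tested members was called, where 56.0% of all tested probe sets were called, 27.9% higher and 28.1% lower. Groups did not overlap for Ptgis and Ptgs2, as for 66.4% of tested probe sets. All 6 mesenchymal markers were lower in WB311 as well, with summed levels of 53135 to 60854 in WB-F344 and 16617 to 17511 in WB311, while the summed level of 3 endothelial markers, of which only Tek reached 100, was 59.8 to 78.1 in WB-F344 and 973 to 1105 in WB311. All 4 tested epithelial markers differed too. Krt8, Krt18 and Krt19 were higher in WB311, and Krt7 was lower, with a mean of 5534 in WB-F344 and 76.5 in WB311. Their part in the member differences was not tested.

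With rapamycin in both lines, Ptgis and Pla2g4a were called lower in WB311 than in WB-F344, where 59.3% of all tested probe sets were called and 26.0% were called lower. The values of Ptgs2 were lower as well, and none of the 3 overlapped between the lines, as for 72.3% of tested probe sets. The Ptgis difference was -1.90 on the log2 scale (standard error 0.069, 95% interval -2.05 to -1.75), or 3.74-fold lower (adjusted p = 1.66e-10 from limma). The Pla2g4a difference was -0.83 (standard error 0.09, 95% interval -1.02 to -0.64), or 1.78-fold lower (adjusted p = 3.56e-06 from limma). For Ptgs2 the log2 difference was -1.62 (standard error 0.17, 95% interval -1.99 to -1.25), or 3.08-fold lower. Without the WB-F344 plates numbered 2 these log2 differences were -1.91 for Ptgis, -0.81 for Pla2g4a and -1.64 for Ptgs2. The order of the lines for Ptgs2 was thus opposite in the 2 treatments, higher in WB311 with vehicle and lower in WB311 with rapamycin. Markers differed here too. Cd14 was lower in WB311 (log2 difference -0.89, and -0.98 without those plates), 5 of 6 mesenchymal markers were lower with summed levels of 48197 to 53991 in WB-F344 and 16683 to 17933 in WB311, and Tek was higher. Of 3 tested epithelial markers Krt8 and Krt18 were higher in WB311 and Krt7 was lower. Their part in the member differences was not tested. These comparisons share arrays with those above and are not independent of them.

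In order of level, Ptgs2 was lowest in WB-F344 with vehicle (74.5), followed by WB311 with vehicle (132), WB311 with rapamycin (149) and WB-F344 with rapamycin (458). The WB311 groups did not overlap, as for 38.7% of tested probe sets in the comparison of rapamycin with vehicle in that line. Pla2g4a ran from 391 in WB311 with rapamycin through 413 in WB311 with vehicle and 417 in WB-F344 with vehicle to 695 in WB-F344 with rapamycin, and the lowest 3 groups overlapped. Ptgis ran from WB311 with vehicle (814) through WB311 with rapamycin (1067) and WB-F344 with vehicle (3417) to WB-F344 with rapamycin (3986), with no overlap between neighbouring groups.

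The 7 members under 100 were also looked at in a fit with no intensity minimum. None of their 11 probe sets was called by limma for rapamycin in WB-F344, in WB311 or for the difference of these effects, where 9.89%, 0.931% and 3.91% of all 31042 probe sets were called. At an unadjusted p under 0.05 the counts were 0, 1 (Ptges) and 0. The rapamycin and vehicle groups overlapped for all 11 in both lines, whereas 22.6% of all probe sets in WB-F344 and 23.6% in WB311 had no overlap. The largest log2 difference with rapamycin was 0.26 in WB-F344 and 0.17 in WB311, both for Ptges, and the former became 0.12 without the WB-F344 plates numbered 2. Between the lines, Ptgds and Ptger4 were called higher in WB311 in both treatments, where 16.1% of all 31042 probe sets were called higher with vehicle and 17.9% with rapamycin. Groups did not overlap for 3 of the 11 probe sets with vehicle and 5 with rapamycin, against 44.4% and 46.7% of all probe sets. Ptgds read 20.6, 20.02 and 19.7 in WB-F344 with vehicle and 24.6, 26.3 and 29.9 in WB311 (log2 difference 0.42, adjusted p = 0.00137 from limma with no minimum). Ptger4 read 27.8, 25.2 and 26.6 in WB-F344 with vehicle and 31.9, 33.3 and 35.4 in WB311 (log2 difference 0.34, adjusted p = 0.0181 from limma with no minimum). With rapamycin the differences were 0.32 for Ptgds and 0.39 for Ptger4. Without the WB-F344 plates numbered 2 both were still called in both treatments, with differences of 0.42 and 0.30 with vehicle and of 0.34 and 0.28 with rapamycin. All of these values lie below the intensity minimum of the other comparisons, and the calls come only from the fit without it.

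Beyond the 10 members, calls with rapamycin among other prostanoid genes were 0 to 2, depending on the fit. A list of 16 other genes for prostanoid synthesis, receptors, transport and clearance had 14 on the array, with 6 tested in WB-F344 and 7 in WB311. With all arrays and no block the count was 0 in both lines by limma and by the methods' t-test, and at an unadjusted p under 0.05 it was 3 in WB-F344 (Ptgfrn, Abcc4 and Cbr1) and 1 in WB311 (Cbr1). Of all tested probe sets 23.0% and 3.35% were called. In WB-F344 a replicate block called Ptgfrn and Abcc4 lower, and without the plates numbered 2 Ptgfrn was called lower (-0.34, adjusted p = 0.0224 from limma). The same 2 settings called Ptgfrn for a difference of the effect between the lines, which called 0 genes of 7 with all arrays and no block (1, Ptgfrn, at an unadjusted p under 0.05). Of all tested probe sets 10.0% were called for that difference. Median log2 differences of the tested probe sets were -0.14 and -0.08, against -0.05 and 0.01 over all tested probe sets. Between the lines 5 of 7 tested genes were higher and 1 lower in WB311 in each treatment. The counts were the same without the WB-F344 plates numbered 2. By probe set 6 of 8 tested were called in each treatment, where 56.0% of all tested probe sets were called with vehicle and 59.3% with rapamycin. Ptgr1, a prostaglandin reductase, was at 42.6 ± 6.79 in WB-F344 and 246 ± 11.6 in WB311 with vehicle (SD, n = 3; log2 difference 2.54, adjusted p = 1.94e-09 from limma), a rough size since WB-F344 was under 100. Ptgr2, another prostaglandin reductase, was lower in WB311 on the brighter of its 2 probe sets (-0.56, adjusted p = 3.79e-05 from limma). Its dimmer probe set, with vehicle means of 136 in WB-F344 and 130 in WB311, was not called. Ptgfrn, a negative regulator of the prostaglandin F receptor, was higher by 1.06 (adjusted p = 0.000128), and Cbr1, a carbonyl reductase that acts on prostaglandin E, by 0.39 (adjusted p = 0.000121). Without the WB-F344 plates numbered 2 these 4 differences were 2.58, -0.51, 1.26 and 0.37, all still called. The median was 0.37 with vehicle and 0.35 with rapamycin, against 0.02 and 0.06 over all tested probe sets.

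Of 26 genes that release and handle arachidonic acid 23 were on the array. In WB-F344, 7 of 18 tested genes fell with rapamycin and none rose, where 15.3% of all tested probe sets were called lower. These 7 had 8 called of the list's 25 tested probe sets, and the median was -0.18 against -0.05 over all tested probe sets. With a replicate block, and also without the plates numbered 2, 8 fell and 1 rose, and by the methods' t-test 6 fell. The gene that rose in those settings was Acsl4, an acyl-CoA synthetase, which read 741, 1083 and 705 with vehicle and 917, 1244 and 891 with rapamycin on plates 1 to 3. Fabp5, a fatty acid-binding protein, fell from 1464 ± 62.9 to 916 ± 51.1 (SD, n = 3; log2 difference -0.68, adjusted p = 6.43e-05 from limma). The desaturases Fads1 and Fads2, which act in the synthesis of arachidonic acid, changed by -0.62 (adjusted p = 0.000552) and -0.72 (adjusted p = 0.000775). Mgll, a monoacylglycerol lipase, changed by -0.88 on its brighter probe set (adjusted p = 0.00141), with a rapamycin mean under 100. Without the plates numbered 2 these differences were -0.67 for Fabp5, -0.57 for Fads1, -0.74 for Fads2 and -0.97 for Mgll, all still called. Pla2g4a, with its rise of 0.74, moved the other way from these 4 genes.

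In WB311, 3 of 15 tested genes of this list fell and none rose. These 3 had 4 called of the list's 20 tested probe sets, where 1.64% of all tested probe sets were called lower. The median was -0.08 against 0.01 over all tested probe sets. By the methods' t-test, with a replicate block or without the WB-F344 plates numbered 2, 5 fell and none rose. Lpcat3, which returns arachidonic acid to phospholipids, changed by -0.51 (adjusted p = 0.00163 from limma) on 1 probe set and by -0.68 on the other. Fads1 changed by -0.60 (adjusted p = 0.00564) and Acsl1, an acyl-CoA synthetase, by -0.50 (adjusted p = 0.0117). The rapamycin effect differed between the lines for 1 of 18 tested genes, Lpcat3, by -0.41 on 1 probe set (adjusted p = 0.011 from limma). This was 1 of the list's 25 tested probe sets, where 10.0% of all tested probe sets were called. The other Lpcat3 probe set was not called. Its means with vehicle and rapamycin were 522 and 477 in WB-F344, and 770 and 482 in WB311. With a replicate block, or without the WB-F344 plates numbered 2, 5 genes were called (Mgll, Lpcat1 and Elovl5 higher in WB311, Acsl4 and Lpcat3 lower). Between the lines with vehicle, 6 of 18 tested genes were higher in WB311 and 7 lower (6 and 6 without those plates). By probe set 18 of 25 tested were called, where 56.0% of all tested probe sets were called. Fabp5 was lower by the most among those called. It read 1464 ± 62.9 in WB-F344 and 89.1 ± 6.70 in WB311 (SD, n = 3; log2 difference -4.04, adjusted p = 5.34e-13 from limma), a rough size since WB311 was under 100. With rapamycin 5 of 17 were higher and 4 lower (5 and 3 without those plates). By probe set 12 of 23 tested were called, where 59.3% of all tested probe sets were called. Nothing is read from these counts between the lines.

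Of 10 lipoxygenase and leukotriene genes only Lta4h, the leukotriene A hydrolase, was bright enough to test. With rapamycin its log2 difference was -0.19 in WB-F344 (adjusted p = 0.0726 from limma) and -0.17 in WB311 (adjusted p = 0.237). It was higher in WB311 by 0.30 with vehicle (adjusted p = 0.00263 from limma) and by 0.32 with rapamycin (adjusted p = 0.00175), and by 0.28 in each treatment without the WB-F344 plates numbered 2.

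Among 15 factors known to act on the Ptgs2 gene or its mRNA, 1 of 13 tested was called with rapamycin in each line. This was 1 of 21 tested probe sets in each, where 23.0% of all tested probe sets were called in WB-F344 and 3.35% in WB311. In WB-F344 the factor was Jun, a subunit of AP-1. By the methods' t-test 0 were called, with a replicate block 2 (Jun and Atf2) and in the fit that left out the plates numbered 2 there were 3 (also Usf1). Jun fell from 773 ± 35.1 to 624 ± 63.2 on 1 of 3 tested probe sets (SD, n = 3; log2 difference -0.31, adjusted p = 0.0182 from limma), and its other probe sets were at -0.10 and -0.21. Without the plates numbered 2 the first was at -0.36. The median was -0.10 against -0.05 over all tested probe sets. In WB311 Tia1, an RNA-binding protein, was called (0.40, adjusted p = 0.0478 from limma), with a vehicle mean under 100. By the methods' t-test 3 were called there (Tia1, Jun and Creb1), and the fit that left out the WB-F344 plates numbered 2 called Tia1 and Jun. The rapamycin effect differed between the lines for 1 of 14 tested factors, Jun, by 0.55 (adjusted p = 0.0132 from limma), and for 3 with a replicate block (also Usf1 and Celf2). Without those plates it was 2 (Jun and Usf1). With all arrays and no block, 2 of 23 tested probe sets were called (both Jun), against 10.0% of all tested probe sets. Between the lines with vehicle 6 of 13 tested were higher and 4 lower in WB311 (6 and 5 without those plates). Cebpb, a C/EBP family factor, was at 1794 ± 178 in WB-F344 and 883 ± 39.5 in WB311 (SD, n = 3; log2 difference -1.02, adjusted p = 8.48e-06 from limma). Its relative Cebpd was lower by more and was under 100 in WB311 (-2.48 on its brighter probe set, adjusted p = 1.9e-08). Zfp36, which promotes the decay of such mRNAs, was lower in WB311 (-0.85, adjusted p = 2.32e-05), and Creb1 was higher (1.12 on its brighter probe set, adjusted p = 1.68e-05). Without those plates the differences of Cebpb, Cebpd, Zfp36 and Creb1 were -0.94, -2.52, -0.85 and 1.25, all still called. With rapamycin 7 of 14 tested factors were higher and 3 lower in WB311 (6 and 3 without those plates). By probe set 14 of 22 tested were called between the lines with vehicle and 15 of 23 with rapamycin. Shares of all tested probe sets called were 56.0% and 59.3%.

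**Figure D4:**
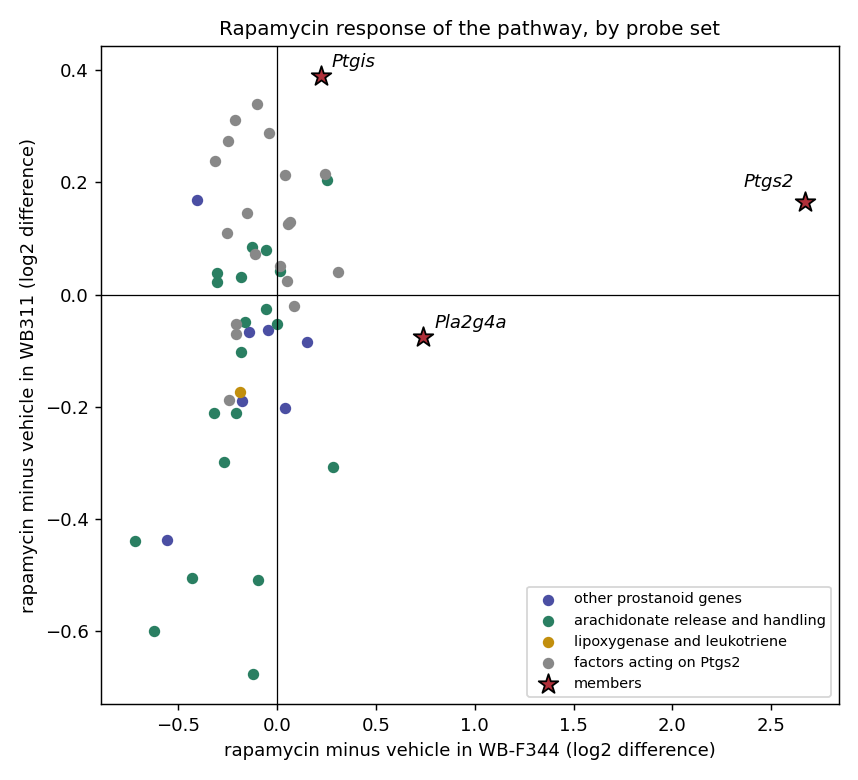
Log2 difference with rapamycin in WB-F344 (horizontal) against that in WB311 (vertical) for probe sets tested in both lines. Points are 7 probe sets of other prostanoid genes, 20 of arachidonate genes, 1 of the lipoxygenase list and 19 of Ptgs2 factors, and stars are the 3 members. Ptgs2 at 2.67 and Pla2g4a at 0.74 lie to the right of all other points, and Ptgis at 0.39 lies above them.

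The patterns of the 3 brighter members over the 12 arrays were compared with those of 8666 genes by the Pearson correlation of log2 intensity. The arrays fall into 4 groups, so these coefficients mostly describe the order of the group means, and no test was made. Most like Ptgs2 were Ccng2 (r = 0.956), Odc1 (0.953), Tdrd7 (0.950), Eif4a2 (0.948) and Sgk1 (0.947). Most like Pla2g4a were Socs5 (0.980), Dusp5 (0.976) and Sorbs2 (0.976). Most like Ptgis were Actn1, Cux1 and Ocln (each 0.998).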

How the data were processed

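RNA of 12 plates was measured on 12 Affymetrix rat arrays. Per the labels, the authors normalized the intensities with RMA (Robust Multiarray Average), and no software version is given in the sources used here. The deposited intensity values are linear (7.78 to 20499, array medians 59.5 to 62.9) and their log2 was taken here. The array annotation gave 1 symbol for 20826 of 31042 non-control probe sets, several for 436 and none for 9780, and 20758 of those 20826 matched the RefSeq gene table.

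All 12 arrays were fitted as 4 group means in R 4.3.3 with limma 3.58.1 (lmFit, eBayes), which was also tested on simulated data. A probe set was tested where its mean was at least 100 in a group compared, and called at a Benjamini-Hochberg adjusted p under 0.05 over all tested probe sets and at least 1.2-fold. These thresholds are the study's, whose own test was a two-sample t-test. Precision is limited by 3 arrays per group. No arrays were identical. Same-numbered plates of WB-F344 deviated together from their group means (r = 0.561 to 0.871 across probe sets), so their numbers were taken to pair them, while those of WB311 did not (-0.139 to -0.000258).

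The members and lists were chosen with earlier results of these data known. Besides the members, at most 4 called genes per list and comparison are named, those with the smallest p first. Alternatives covered the intensity minimum, a pseudocount, the normalization, the fit, the t-test, a replicate block and left-out plates. The study's other cell lines (GN5, H5D) were not used here.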

Additional observations from a re-analysis of the deposited data

Results flagged for a closer look

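The effect of rapamycin on Pla2g4a differed between the lines by a test of the difference itself. The log2 effect in WB311 minus that in WB-F344 was -0.82 (adjusted p = 0.00159 from the interaction contrast in limma, standard error 0.12), and its adjusted p lay between 0.00018 and 0.00679 over 22 alternatives.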

How the results depend on the processing

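Over 15 results for the 3 brighter members, 276 values were computed under alternatives, of which 271 kept their direction and their side of the threshold. Part of this tally is Ptgs2, which prompted the set and changed in none of its values. Nothing is read from the tally for that gene. Without WB311 rapamycin replicate 2 the Ptgis rise in WB311 was 0.35 (adjusted p = 0.0544 from limma), so that the count of members called there ranged from 0 to 1 when each plate was left out in turn. After cyclic loess between the arrays the Ptgis rise in WB-F344 was called (0.31, adjusted p = 0.00348). Counts of members here include Ptgs2, which carries no test of its own. With no intensity minimum 4 members were called between the lines with vehicle and 5 with rapamycin, Ptgds and Ptger4 being added. In that fit 9932 and 10418 of all 31042 probe sets were called, and nothing is read from the counts of members. The Pla2g4a difference between the lines with vehicle, never called, turned from -0.014 to 0.058 without the WB-F344 plates numbered 2. When each plate was left out in turn it ranged from -0.062 to 0.058, and it was above 0 without the WB-F344 vehicle plate 2 or the WB311 vehicle plate 2. The cause was not tested.

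Counts over all probe sets moved more. For rapamycin in WB-F344 the 3055 calls became 1853 with only the groups compared in the fit and 2035 by the methods' t-test. For rapamycin in WB311 the 440 calls became 289 with no minimum, 1140 with only the groups compared, 1234 by the t-test, 1188 without the WB-F344 plates numbered 2 and 165 to 217 when a WB311 plate was left out. The 1424 calls for the difference between the lines became 2527 without those plates. Same-numbered plates deviated together in WB-F344 only, with correlations of 0.561 to 0.871, although plate 3 did not match its own number best. In WB311 the correlations were -0.139 to -0.000258. As the WB-F344 plates numbered 2 also stood apart in RNA quality, these values do not establish a pairing. A replicate block within each line left the members called as they were in the 3 comparisons of rapamycin effects, with counts over all probe sets of 4033, 1019 and 2761. It cannot be fitted for the comparisons of the lines, since the numbers are nested in the lines. A random replicate block for plates of 1 line with the same number, chosen after seeing the data, changed no member call in any of the 5 comparisons, with counts over all probe sets of 3710, 902, 2568, 7921 and 8384. Moderating variances only over probe sets with a mean of at least 100, also chosen after seeing the data, changed no member count. List counts without the WB-F344 plates numbered 2 were added after seeing the data too. Low intensities limit what can be said of the 7 dimmer members.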
